A study of Mus musculus with 76 samples.

Results

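The 10 genes described here encode enzymes that carry glucose to lactate: *Hk2*, *Gpi1*, *Pfkl*, *Aldoa*, *Tpi1*, *Pgk1*, *Pgam1*, *Eno1*, *Pkm* and *Ldha*. They were picked by name, as members of the pathway, and were matched to the gene IDs of the deposited table, which lists 55536 genes. All 10 passed the filter on low counts in every comparison, as did 14646 genes when all tumors were considered. Whole tumors were profiled by 3′ RNA-sequencing, which reads transcripts near their 3′ end, in 38 tumors with 2 technical libraries each, to ask whether catalase placed outside or inside tumor cells changes their transcription. Catalase is the enzyme that breaks down hydrogen peroxide.

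The tumors were grown under the skin of female Balb/c mice and fall into 7 groups. CT26, a mouse colorectal carcinoma line, received either CAT-ABP + alum (6 tumors) or alum alone (5 tumors). 4T1, a mouse mammary carcinoma line, received the same agents in 6 and 5 tumors. Replicates are separate tumors. In CAT-ABP the enzyme carries an alum-binding peptide, and alum, an aluminum salt, holds the protein at the injection site. 4T1-CAT cells, a line made from 4T1 by lentivirus and sorted on GFP, express human catalase without its peroxisomal targeting motif together with GFP when doxycycline is given, and 5 of these tumors received CAT-ABP + alum and 5 received alum. 4T1-control cells express GFP alone and received alum in 6 tumors. A doxycycline diet was fed from day 4 to the mice that bore 4T1-CAT or 4T1-control tumors, and not to those that bore CT26 or unmodified 4T1 tumors. By the sample labels, 20 ug CAT-ABP with 100 ug alum, or 100 ug alum, was injected into the tumor on day 6 and the tumor was taken on day 8. The study's own text places each of these steps later than the labels do, and the days given here are those of the labels. The count table lists mouse genes only, so the human catalase transgene was not measured here. Endogenous *Cat*, which encodes mouse catalase, had a group mean between 23.3 CPM (counts scaled to a common library size by the TMM method and expressed per 1e6) in CT26 tumors with alum and 41.4 CPM in 4T1-control tumors.

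Total counts ranged from 493044 to 9077549 per tumor (median 4827388) and from 46233 to 6958626 per library. Epithelial markers separated the lines, with 9 such genes adding up to between 40.9 and 85.8 CPM in the 11 CT26 tumors and to between 1579 and 2902 CPM in tumors of the 4T1 lines. *Cldn7* was at 0 in all 11 CT26 tumors, and *Epcam*, which defines epithelial cells, averaged 2.66 CPM in CT26 against 379 CPM in 4T1 with alum. Transcripts of these epithelial markers were thus nearly missing from the CT26 tumors, which does not measure how many carcinoma cells those tumors held. Replicate 2 of 4T1-control was the shallowest tumor, and its mean over the 10 genes (7.75 log2 CPM) was the lowest of all. Some results that rest on 4T1-control are therefore also given without it, or as ranges with each tumor left out in turn.

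Glycolysis converts glucose to pyruvate and yields ATP without oxygen, and lactate dehydrogenase then turns pyruvate into lactate so that the pathway can continue. Tumors are known for a high rate of glycolysis, and the transcription factors HIF-1 (hypoxia-inducible factor) and Myc are known to activate most of these genes. Glycolysis also responds to oxidants, since several of its enzymes carry thiols that hydrogen peroxide can oxidize.

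In the order of the reactions, *Hk2* (chr6:82725025-82774454) encodes hexokinase 2, which traps glucose in the cell by phosphorylation, and *Gpi1* (chr7:34201330-34230336) the isomerase that makes fructose 6-phosphate. *Pfkl* (chr10:77986947-78010083) encodes the liver-type phosphofructokinase of the committed step. *Aldoa* (chr7:126795234-126800751) encodes the aldolase that splits the sugar, and *Tpi1* (chr6:124810586-124814296) the isomerase that interconverts the triose phosphates. *Pgk1* (chrX:106187100-106203699) encodes phosphoglycerate kinase, the first ATP-yielding enzyme, and *Pgam1* (chr19:41911923-41918660) phosphoglycerate mutase. *Eno1* (chr4:150236721-150248879) encodes enolase, *Pkm* (chr9:59656368-59679375) the M-type pyruvate kinase, and *Ldha* (chr7:46841475-46855627) the A subunit of lactate dehydrogenase. Positions are those of the whole genes on GRCm38, with *Pgk1*, *Pgam1*, *Eno1*, *Pkm* and *Ldha* on the plus strand and *Hk2*, *Gpi1*, *Pfkl*, *Aldoa* and *Tpi1* on the minus strand.

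The 250 bases upstream of the RefSeq start are shown for *Pgk1*, *Pgam1*, *Eno1* and *Ldha*, because the first pair and the last pair each varied closely together among tumors while r between a gene of one pair and a gene of the other ran from -0.37 to 0.18. The sequences are RefSeq promoters on GRCm38.p6, written 5′ to 3′ on the plus strand, the coding strand of all 4 genes. Capitals mark the letters ACGTG on either strand, a form of the core recognized by HIF-1. These letters are also part of the CACGTG bound by Myc. Another form of that core, GCGTG, was neither searched nor marked. The windows lie at chrX:106186850-106187099 for *Pgk1*, chr19:41911621-41911870 for *Pgam1*, chr4:150236458-150236707 for *Eno1* and chr7:46846832-46847081 for *Ldha*, the last of which falls inside the *Ldha* gene but in no exon.
Pgk1: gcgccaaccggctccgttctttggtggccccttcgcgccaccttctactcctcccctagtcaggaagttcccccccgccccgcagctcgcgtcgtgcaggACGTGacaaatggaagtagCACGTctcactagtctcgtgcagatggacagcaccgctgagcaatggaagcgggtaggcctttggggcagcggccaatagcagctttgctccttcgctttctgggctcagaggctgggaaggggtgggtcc
Pgam1: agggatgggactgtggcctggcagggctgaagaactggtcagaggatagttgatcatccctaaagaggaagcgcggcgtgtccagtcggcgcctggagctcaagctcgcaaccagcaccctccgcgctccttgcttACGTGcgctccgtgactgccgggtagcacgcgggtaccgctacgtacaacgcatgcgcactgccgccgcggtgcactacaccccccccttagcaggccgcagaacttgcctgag
Eno1: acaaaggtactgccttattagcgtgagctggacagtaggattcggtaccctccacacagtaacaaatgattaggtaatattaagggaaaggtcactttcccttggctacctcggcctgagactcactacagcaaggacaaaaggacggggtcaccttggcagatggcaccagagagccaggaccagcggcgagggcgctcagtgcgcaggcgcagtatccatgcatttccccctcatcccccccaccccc
Ldha: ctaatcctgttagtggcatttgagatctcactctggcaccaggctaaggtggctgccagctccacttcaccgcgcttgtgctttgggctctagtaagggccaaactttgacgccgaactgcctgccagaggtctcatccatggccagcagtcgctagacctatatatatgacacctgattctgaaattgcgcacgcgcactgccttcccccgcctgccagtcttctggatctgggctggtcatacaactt

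ACGTG stood 150 and 131 bases before the start of *Pgk1* and 114 bases before that of *Pgam1*. It was not found in these windows of *Eno1* and *Ldha*. The letters GCGTG, the form of the core that was not searched, can be read in the windows of *Pgam1* and *Eno1*. On the other strand they can be read in that of *Ldha*. The lack of ACGTG thus does not show that *Eno1* and *Ldha* lack the core. The RefSeq start used for *Eno1* lay 244 bases from the start of the principal *Eno1* transcript, so most bases just before the latter were not covered. This distance was 49 bases for *Ldha*, 52 for *Pgam1*, 138 for *Tpi1* and 208 for *Pkm*. Taking for each gene the window nearest to its principal transcript, 4 of the 10 genes held ACGTG (*Hk2*, *Aldoa*, *Pgk1* and *Pgam1*), against 16.6% of 32851 promoter windows of the same length. Over all 16 windows listed for the 10 genes, alternative starts included, 6 genes held it, with *Pkm* and *Ldha* added, whereas none of the 3 *Eno1* windows did. No chosen window held CACGTG, which 6.02% of all windows hold, and 6 held GGGCGG, the letters bound by Sp1, against 32.7% of all windows. These matches describe the letters of the windows and are not measured binding sites.

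The mean level of the 10 transcripts was highest in CT26 tumors given alum and differed little among the 4T1 lines, although the mean of *Pfkl* was below those of all 5 groups of the 4T1 lines in both CT26 groups. The mean of the 10 log2 CPM values was 8.73 ± 0.12 (SD, n = 5) in CT26 with alum and 8.45 ± 0.18 (n = 6) in CT26 with CAT-ABP + alum. It was 8.28 ± 0.11 in 4T1-CAT with CAT-ABP + alum, 8.23 ± 0.16 in 4T1 with alum and 8.22 ± 0.15 in 4T1 with CAT-ABP + alum. It was 8.17 ± 0.065 in 4T1-CAT with alum and 8.16 ± 0.21 in 4T1-control with alum. Neighbours in this order overlapped between tumors at every step, but the lowest CT26 tumor with alum (8.57) lay above the highest tumor of every 4T1 group (8.42). Since whole tumors were measured, fewer cells that express a gene and less RNA of it per cell cannot be told apart.

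**Figure D1:**
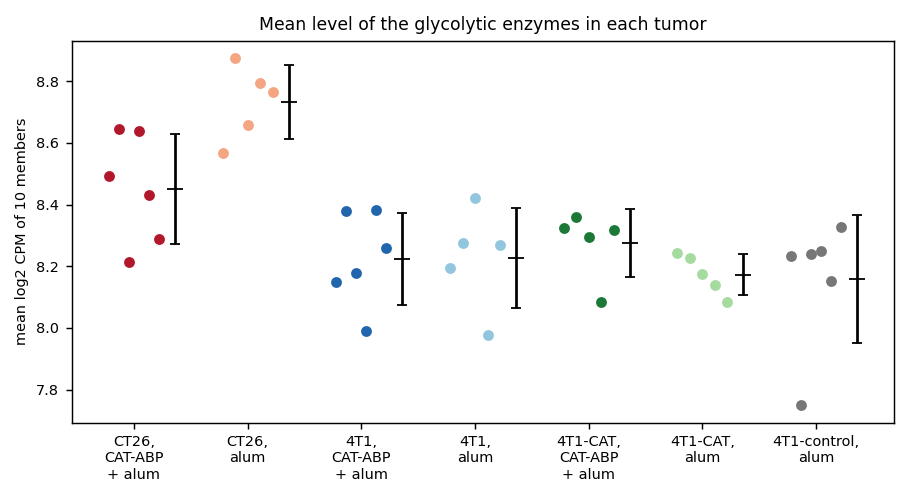
Mean log2 CPM of the 10 glycolytic genes in each tumor (points), by group, with the group mean and SD beside the points. The 5 CT26 tumors with alum sit between 8.57 and 8.87, the 6 CT26 tumors with CAT-ABP + alum between 8.21 and 8.65, and the lowest point, 7.75, is 4T1-control replicate 2.

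Among the enzymes of the first steps, *Gpi1* averaged 414 ± 54.7 CPM in CT26 with alum, 348 ± 26.3 CPM in CT26 with CAT-ABP + alum, and between 227 and 252 CPM in the 5 groups of the 4T1 lines. *Tpi1* stood at 793 ± 148 CPM and 678 ± 66.6 CPM in the same CT26 groups, and between 403 and 441 CPM in the 4T1 lines. These 2 genes were higher in CT26 under both treatments. *Hk2* averaged between 44.7 and 55.6 CPM in all 7 groups, and *Aldoa* between 693 and 935 CPM, with both ends of its range in CT26. *Pfkl* was the most thinly counted of the 10, with group means between 6.94 and 13.3 CPM and only 4 to 160 counts per tumor.

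Among the enzymes of the later steps, *Pgk1* averaged 1455 ± 162 CPM in CT26 with alum and 1106 ± 209 CPM in CT26 with CAT-ABP + alum, against group means from 638 to 687 CPM in the 4T1 lines. *Eno1* stood at 1661 ± 571 and 1543 ± 252 CPM in the CT26 groups and between 811 and 956 CPM in the others. *Ldha* stood at 1935 ± 428 and 1732 ± 254 CPM in the CT26 groups and between 1105 and 1223 CPM in the others. For these 3 genes both CT26 group means lay above every group mean of the 4T1 lines. *Pgam1* (303 to 387 CPM) and *Pkm* (510 to 692 CPM) had group means that lay much closer together, highest in CT26 with alum.

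**Figure D2:**
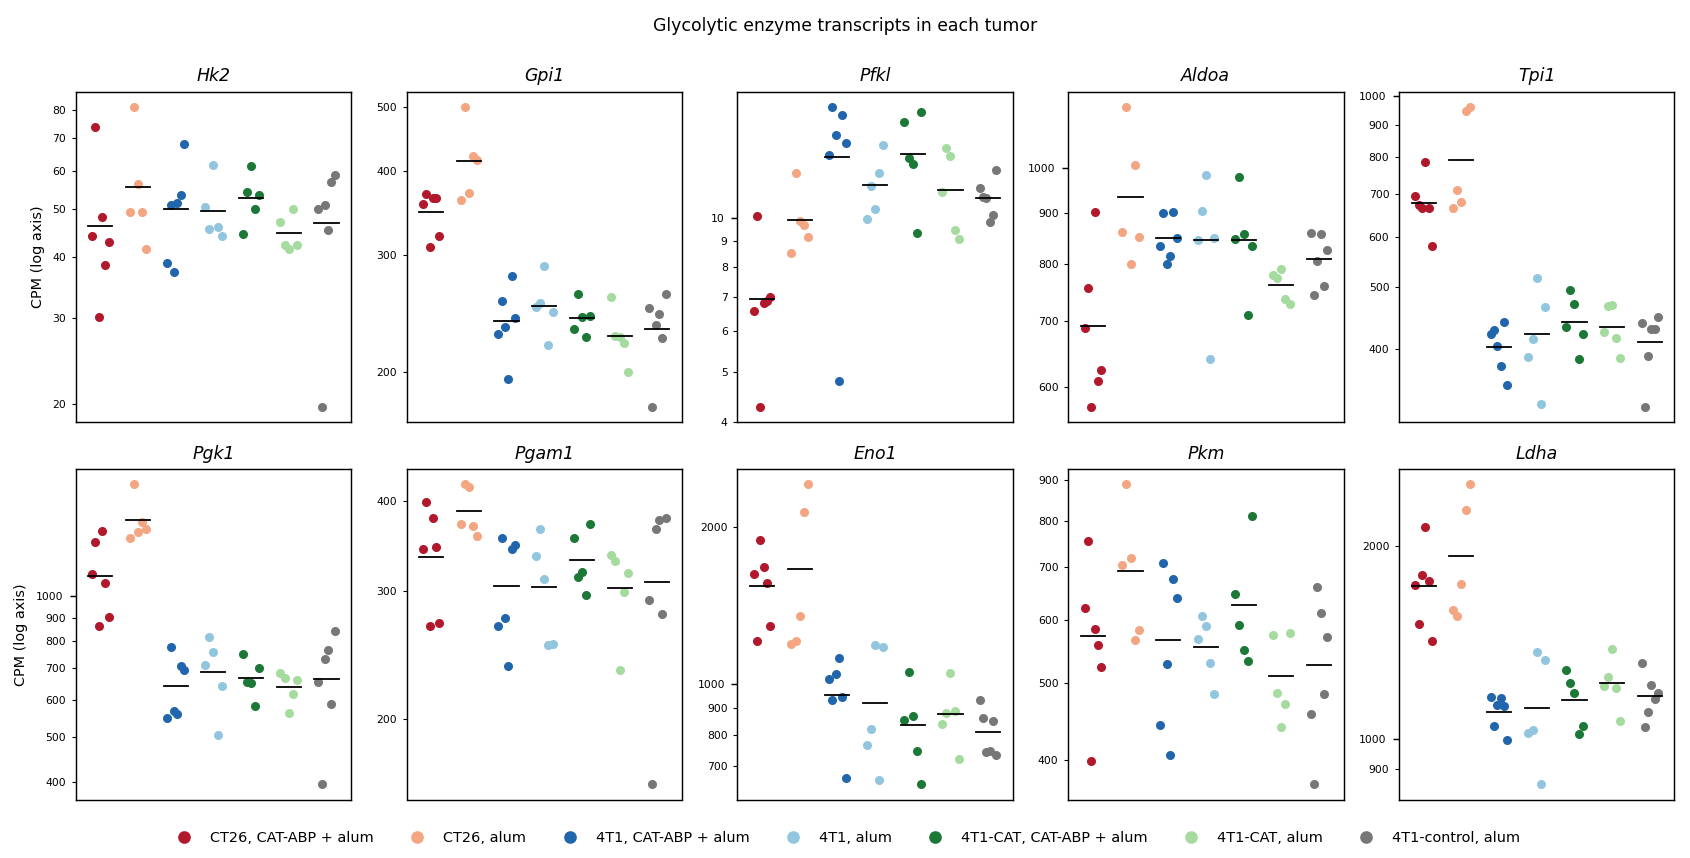
CPM of each glycolytic gene in each of the 38 tumors (points, log axis, 1 panel per gene), colored by group, with the group mean as a bar. *Pgk1*, *Tpi1*, *Ldha*, *Eno1* and *Gpi1* lie higher in CT26 than in the 4T1 lines, while *Hk2* spans 19.7 to 81.1 CPM with no group apart from the rest.

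Extracellular catalase was tested first, by comparing CT26 tumors given CAT-ABP + alum with those given alum. All 10 transcripts were lower on average with CAT-ABP + alum, and none passed the test. *Pgk1* read 1333, 1736, 1374, 1442 and 1393 CPM in the 5 alum tumors, and from 862 to 1381 CPM (median 1093) in the 6 CAT-ABP + alum tumors. The alum tumors were the higher ones, and 1 CAT-ABP + alum tumor reached into their range. *Aldoa* read 861, 1154, 801, 1007 and 853 CPM with alum and 574 to 902 CPM (median 657) with CAT-ABP + alum. Here the CAT-ABP + alum tumor at 902 CPM exceeded 3 of the 5 alum tumors. *Pfkl* read 8.53, 12.2, 9.84, 9.69 and 9.18 CPM with alum and 4.28 to 10.1 CPM (median 6.85) with CAT-ABP + alum, again overlapping at the top of the treated range.

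By edgeR's quasi-likelihood test, with p adjusted over all genes by the Benjamini-Hochberg method and a threshold of 0.05, 0 of the 10 genes were called in CT26, as was 0% of the 12830 genes tested (adjusted p = 0.9997 for each member). DESeq2 called 0 of the 10 as well. The study's own DESeq2 analysis of this comparison, for which some technical replicates had been left out, called *Aldoa*, *Pgk1* and *Car9* lower. The source of that difference was not tested. An unadjusted p under 0.05 was reached by 3 of them, against 2.42% of all genes, and the tumors of the groups overlapped for all 10, where 0.297% of all genes did not overlap. The log2 differences, CAT-ABP + alum minus alum, were -0.48 for *Pfkl* (95% confidence interval -0.94 to -0.02), -0.43 for *Aldoa* (-0.78 to -0.09) and -0.40 for *Pgk1* (-0.75 to -0.05). The other 7 lay between -0.27 for *Pkm* and -0.10 for *Eno1*, and their intervals included 0. The median of the 10 was -0.25 and that of all genes -0.00. The early enzymes, from *Hk2* to *Tpi1*, had a median of -0.25 and the later ones, from *Pgk1* to *Ldha*, of -0.22. Every member stayed below 0 under each alternative of processing, but without alum replicate 4 or 5 *Eno1* came to 0.00 and 0.06.

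Other genes around the pathway were set beside the members in CT26. Of 11 other glycolytic genes tested, isozymes together with *Gapdh* and *Bpgm*, 9 were lower with CAT-ABP + alum and 0 were called (median -0.18). Of 8 regulators of glycolytic flux, 7 were lower, and of 6 glucose and lactate transporters, 4 were lower, among them *Slc2a1*, the glucose transporter GLUT1, at -0.55. HIF target genes outside glycolysis had 11 of 12 lower (median -0.42), of which *Car9*, a carbonic anhydrase used as a hypoxia marker, stood at -0.82, while *Angptl4*, a lipase inhibitor, stood at 0.33. None of these passed adjustment, and 7 of the 12 HIF targets, *Angptl4* among them, had an unadjusted p under 0.05, against 2.42% of all genes. The subunits of pyruvate dehydrogenase (median 0.02) and the 7 enzymes of the pentose phosphate pathway (median -0.00) showed no such shift. Skeletal muscle markers, whose tissue is rich in *Aldoa*, added up to 1113, 106, 616, 219 and 247 CPM in alum replicates 1 to 5 and to 248 to 635 CPM in the treated tumors. Their part in the *Aldoa* difference was not tested. All 6 neutrophil markers tested were higher with CAT-ABP + alum (median 0.51, 0 called, 1 at an unadjusted p under 0.05), and their part was not tested either.

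In 4T1, the same injection left the 10 transcripts close to the alum tumors. Again 0 of the 10 were called by edgeR's quasi-likelihood test, as was 0% of 13092 genes, and 0 of the 10 by DESeq2. No member had an unadjusted p under 0.05, against 2.88% of all genes, and the groups overlapped for all 10, where 0.367% of all genes did not overlap. The differences ran from -0.10 for *Pgk1* to 0.25 for *Pfkl*, with a median of 0.00. *Pgk1* read 714, 818, 759, 504 and 643 CPM with alum and 548 to 779 CPM (median 630) with CAT-ABP + alum. The treated tumors lay within the range of the controls. The 95% confidence interval was -0.43 to 0.23 for *Pgk1* and -0.16 to 0.67 for *Pfkl*, and no interval of the 10 excluded 0. Only 2 of the 5 alum tumors shared library index tags with the CAT-ABP + alum tumors, and against those alone the differences were wider, at -0.25 for *Pgk1*, -0.20 for *Pgam1*, 0.27 for *Eno1* and 0.37 for *Pfkl*, with none called. Around the pathway, *Car9* was at -0.13, *Slc2a1* at 0.14 and *Hif1a* at 0.14 over all tumors. *Angptl4* was at 0.74, with an unadjusted p under 0.05, and was not called.

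Whether the effect of CAT-ABP differed between CT26 and 4T1 was tested as an interaction in 1 model of the 4 groups. The difference of effects, CT26 minus 4T1, was below 0 for all 10 genes, with a median of -0.24 against -0.02 for all genes. No member was called by edgeR's quasi-likelihood test (0% of 14160 genes called, adjusted p = 1.00 for each member) or by DESeq2. *Pfkl* at -0.73 (95% confidence interval -1.33 to -0.14) and *Aldoa* at -0.45 (-0.87 to -0.03) had an unadjusted p under 0.05, as did 3.59% of all genes. Both comparisons with alum enter this test, so its 10 signs are not a result apart from those given above for CT26.

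Intracellular catalase was tested by comparing 4T1-CAT with 4T1-control tumors, both with alum. The 10 differences lay between -0.14 for *Hk2* and 0.10 for *Eno1*, with a median of -0.04. None was called by edgeR's quasi-likelihood test (0% of 12534 genes) or by DESeq2, and none had an unadjusted p under 0.05, against 5.08% of all genes. The groups overlapped for all 10, where 0.63% of all genes did not. *Hk2* read 47.1, 42.4, 41.5, 50.2 and 42.2 CPM in 4T1-CAT and 19.7 to 58.8 CPM (median 50.6) in 4T1-control. Every 4T1-CAT tumor thus fell inside the control range, but its low end was the shallow replicate 2. The next control tumor stood at 45.3 CPM, above the 4T1-CAT tumors at 42.4, 41.5 and 42.2 CPM. Without replicate 2 the *Hk2* difference was -0.22 and the median of the 10 was -0.09. Around the pathway, *Car9* was at -0.47, *Hif1a* at 0.49 and *Angptl4* at 0.91, each at an unadjusted p under 0.05 and not called. *Slc2a1* was at -0.04 and *Myc* at 0.10.

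Extracellular and intracellular catalase together were compared with each alone or neither. In 4T1-CAT tumors, CAT-ABP + alum against alum gave differences for *Pkm* and *Hk2* of 0.29 (95% confidence interval -0.01 to 0.59) and 0.23 (-0.00 to 0.47). *Pkm* read 647, 592, 550, 532 and 810 CPM with CAT-ABP + alum and 574, 486, 440, 471 and 578 CPM with alum. *Hk2* read 44.6, 54.2, 61.2, 50.1 and 53.4 CPM with CAT-ABP + alum and the values given above with alum. For both genes the treated tumors were mostly the higher ones and the groups overlapped. Neither passed edgeR's quasi-likelihood test (adjusted p = 0.34 and 0.333). All 10 genes were uncalled there and by DESeq2, with 0% of 13093 genes called by edgeR, and none had an unadjusted p under 0.05, although 15.3% of all genes did. The groups overlapped for all 10, where 2.93% of all genes did not. *Eno1* and *Ldha* were the 2 genes below 0, at -0.07 and -0.09. Around the pathway, *Slc2a1* was at 0.55 and *Slc2a3*, another glucose transporter, at -0.45, both at an unadjusted p under 0.05 and not called.

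Against 4T1-control with alum, 4T1-CAT tumors with CAT-ABP + alum showed 9 of the 10 genes above 0 (median 0.08), led by *Pfkl* at 0.29 and *Pkm* at 0.25. None was called by edgeR's quasi-likelihood test (0.0235% of genes called) or DESeq2, or had an unadjusted p under 0.05, against 16.9% of all genes. The number of genes called in this comparison rests on single tumors, going from 3 to 575 without 4T1-control replicate 3 and to 131 without replicate 2. The groups overlapped for all 10, where 1.98% of all genes did not. Without 4T1-control replicate 2 the *Pkm* difference was 0.19 and the median 0.04. The effect of CAT-ABP in 4T1-CAT minus that in 4T1 had a median of 0.13 over the 10 genes, highest for *Pkm* at 0.27, with none called by either tool (0% of 13851 genes called by edgeR) and none at an unadjusted p under 0.05, against 8.79% of all genes. Between 4T1-control and 4T1, which differ in the vector and the doxycycline diet, *Eno1* had the widest difference at -0.19, and the median was -0.06. Among the tumors that shared index tags the *Eno1* difference was -0.29 and that of *Pgam1* 0.21, with none called. There too 0 of the 10 were called by edgeR (0% of 12431 genes) or DESeq2, and 0 had an unadjusted p under 0.05, against 10.5% of all genes, and all 10 overlapped, where 1.16% of all genes did not. These comparisons share the 4T1-CAT, 4T1-control or 4T1 alum tumors with one another, so they are not independent of each other.

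**Figure D3:**
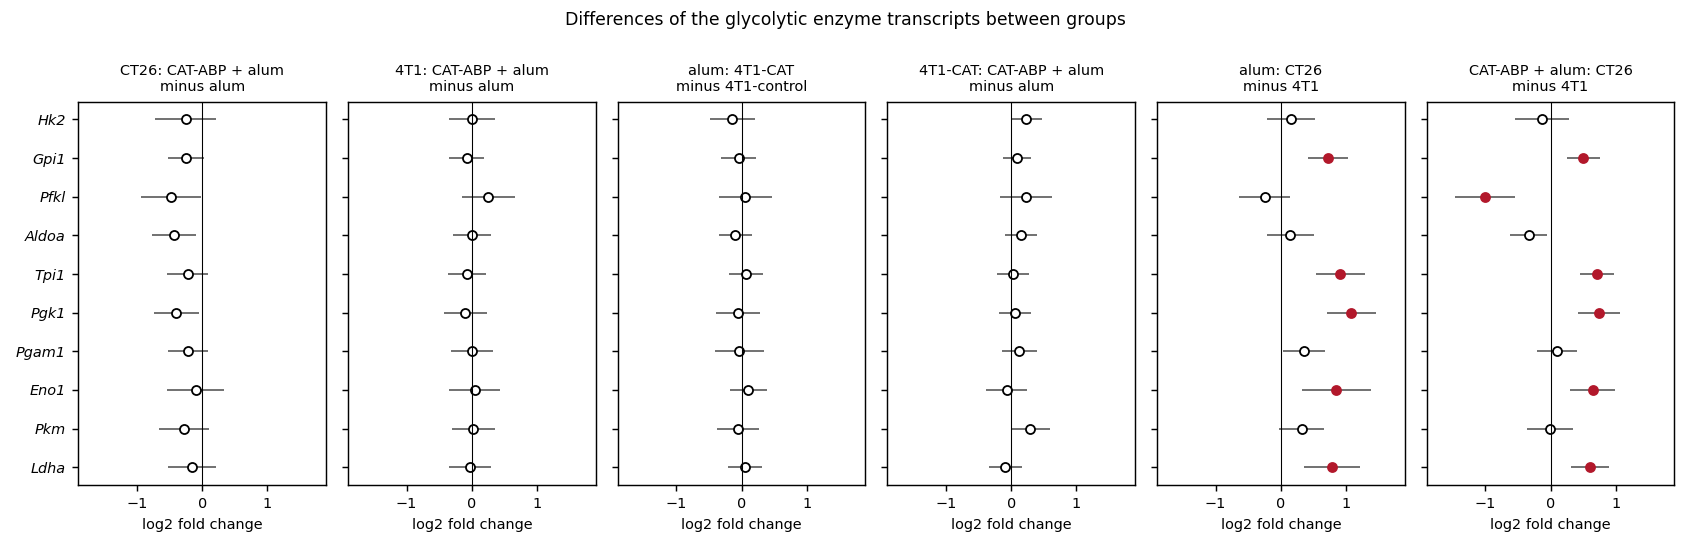
Log2 fold change of each glycolytic gene (rows) in 6 comparisons (panels), with 95% confidence intervals, where filled red points have an adjusted p of at most 0.05. The 4 panels on catalase hold no filled point, and the 2 panels on CT26 against 4T1 hold 5 and 6.

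The tumor models were compared next. With alum, *Pgk1*, *Tpi1*, *Eno1*, *Ldha* and *Gpi1* were higher in CT26 than in 4T1. *Pgk1* read 1333 to 1736 CPM in the 5 CT26 tumors given above and 714, 818, 759, 504 and 643 CPM in the 5 4T1 tumors. No 4T1 tumor came near the lowest CT26 tumor. By edgeR's quasi-likelihood test (Benjamini-Hochberg adjusted), the difference was 1.08 (SE 0.17, adjusted p = 0.000132), or 2.12-fold. *Tpi1* read 665, 710, 681, 946 and 960 CPM in CT26 and 388, 414, 516, 328 and 465 CPM in 4T1, again without overlap, a difference of 0.91 (SE 0.18, adjusted p = 0.000688). *Gpi1* read 362, 500, 371, 422 and 416 CPM in CT26 and 251, 254, 289, 219 and 247 CPM in 4T1, without overlap, a difference of 0.72 (SE 0.14, adjusted p = 0.000904).

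*Ldha* and *Eno1* were higher in CT26 with a wider spread. *Ldha* read 1591, 1556, 1750, 2278 and 2500 CPM in CT26 and 1023, 1035, 1366, 850 and 1331 CPM in 4T1, a difference of 0.79 (SE 0.20, edgeR's quasi-likelihood test, adjusted p = 0.00534). *Eno1* read 1194, 1212, 1351, 2135 and 2411 CPM in CT26 and 766, 821, 1189, 657 and 1179 CPM in 4T1, a difference of 0.85 (SE 0.25, adjusted p = 0.0122). CT26 replicates 4 and 5 were the high ones for *Eno1*, *Ldha* and *Tpi1* alike, and the groups stood apart for *Eno1* only by the gap from 1189 to 1194 CPM. In all, 5 of the 10 genes were called, against 42.4% of all genes. All 5 were higher in CT26, against 21.3% of the 12817 genes tested, and 0 were lower, against 21.1%. The groups did not overlap for the same 5, where 14.3% of all genes stood apart in that direction.

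The remaining 5 genes did not pass the test with alum. *Pgam1* was at 0.35 (adjusted p = 0.0702) and *Pkm* at 0.32 (adjusted p = 0.131) by edgeR's quasi-likelihood test, and DESeq2 called *Pgam1* as a 6th gene. *Hk2* and *Aldoa* were at 0.15 each, and *Pfkl* at -0.25. The median over the 5 early enzymes was 0.15 and over the 5 later enzymes 0.79, against 0.02 for all genes.

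With CAT-ABP + alum, the same 5 genes were again higher in CT26, and *Pfkl* was lower. *Pgk1* ranged from 862 to 1381 CPM in CT26 and from 548 to 779 CPM (median 630) in 4T1. *Tpi1* ranged from 580 to 787 CPM (median 669) in CT26 and from 351 to 440 CPM (median 413) in 4T1. For *Pgk1* the difference was 0.75 (SE 0.15, adjusted p = 0.000661) and for *Tpi1* 0.71 (SE 0.12, adjusted p = 0.000129) by edgeR's quasi-likelihood test. *Eno1* at 0.65, *Ldha* at 0.61 and *Gpi1* at 0.51 had adjusted p = 0.00352, 0.00167 and 0.00199. The tumors of CT26 and 4T1 did not overlap for any of the 5, where 11.5% of all genes stood apart in that direction.

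*Pfkl* ranged from 4.28 to 10.1 CPM in CT26 with CAT-ABP + alum and from 4.80 to 16.5 CPM (median 14.2) in 4T1. The 4T1 tumors were the higher ones except replicate 4 at 4.80 CPM, which rests on 4 counts. It was 2.01-fold lower in CT26 (SE 0.22 on the log2 scale, edgeR's quasi-likelihood test, adjusted p = 0.00111). With technical replicate 2 alone the log2 difference was -0.81 (adjusted p = 0.0705). In all, 6 of the 10 genes were called, against 45.5% of 13016 genes, with 5 higher, against 21.8%, and 1 lower, against 23.7%. *Aldoa* at -0.33 (adjusted p = 0.0537), *Hk2* at -0.14, *Pgam1* at 0.10 and *Pkm* at -0.02 were not called, but DESeq2, the model over 7 groups, the replicate block, library totals alone and technical replicate 2 alone each called *Aldoa* lower in CT26, as did 2 fits without 1 CT26 tumor (replicate 2 or 4). The median over the early enzymes was -0.14 and over the later ones 0.61.

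Scaling bears on the size of these differences. With library totals alone, the median of all genes moved to -0.21 with alum and -0.29 with CAT-ABP + alum, and the members moved with it. The 5 genes were still called with alum, at 0.87 for *Pgk1*, 0.67 for *Tpi1*, 0.59 for *Eno1*, 0.54 for *Ldha* and 0.50 for *Gpi1*. With CAT-ABP + alum they came to 0.49 for *Pgk1*, 0.45 for *Tpi1*, 0.39 for *Eno1*, 0.35 for *Ldha* and 0.24 for *Gpi1*, the last no longer called (edgeR's quasi-likelihood test, adjusted p = 0.191).

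The library index tags given in the sample metadata partly followed the groups: all CT26 tumors and all 4T1 tumors with CAT-ABP + alum shared tags, whereas 3 of the 5 4T1 alum tumors carried the tags of the 4T1-CAT and 4T1-control tumors. Within the tags of the CT26 tumors, where 5 CT26 tumors met 2 4T1 tumors, the alum differences were 0.91 for *Pgk1*, 0.97 for *Tpi1*, 1.05 for *Eno1*, 0.90 for *Ldha* and 0.70 for *Gpi1*. All 5 were called there, with adjusted p between 0.0142 and 0.0395 by edgeR's quasi-likelihood test. The comparison under CAT-ABP + alum lay wholly within shared tags.

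Markers of other cell types differed between the models as well. T cell markers (7 genes) added up to between 63.2 and 169 CPM in CT26 tumors and between 21.6 and 47.2 CPM in unmodified 4T1 tumors. Macrophage markers (8 genes) added up to between 941 and 1309 CPM in CT26 and between 641 and 901 CPM in 4T1. With alum only *Adgre1* (0.85) and *Cd68* (0.73) of these were called higher, and *Csf1r* (0.04) and *Mrc1* (-0.19) were called under neither treatment. Neutrophil markers (7 genes) added up to between 64.3 and 172 CPM in CT26 and between 155 and 283 CPM in 4T1, ranges that overlap. Under either treatment *Mmp9* was called lower in CT26 and *Csf3r* higher. Fibroblast markers (7 genes) added up to between 1360 and 2693 CPM in CT26 and between 2360 and 4143 CPM in 4T1, ranges that overlap. Under either treatment 5 of these 7 genes were called lower in CT26, *Col1a2* was not called, and *Dcn*, which encodes decorin, was higher (1.22 and 0.95 on the log2 scale). The part of these cells, and of the epithelial difference given above, in the higher *Pgk1*, *Tpi1*, *Eno1*, *Ldha* and *Gpi1* of CT26 was not tested.

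Other glycolytic genes, isozymes of the same reactions together with *Gapdh* and *Bpgm*, were split between the models. *Hk3*, a hexokinase of myeloid cells, was 2.80 higher in CT26 with alum and 2.08 higher with CAT-ABP + alum on the log2 scale, and *Eno2*, the neuronal enolase, was 2.64 and 1.98 higher. With alum, *Hk3* averaged 28.9 CPM in CT26 against 4.05 CPM in 4T1, and *Eno2* 27.3 against 4.39 CPM. *Gapdh*, the enzyme between *Tpi1* and *Pgk1*, was 0.77 and 0.47 higher, and *Pfkm*, another phosphofructokinase, 0.54 and 0.60 higher. In the other direction, *Aldoc*, the brain-type aldolase, was at -3.24 and -3.56, *Ldhb*, the B subunit of lactate dehydrogenase, at -1.94 and -1.66, and *Bpgm*, the bisphosphoglycerate mutase, at -1.08 and -1.11. With alum, *Aldoc* averaged 4.91 CPM in CT26 against 45.0 CPM in 4T1, and *Ldhb* 6.64 against 23.8 CPM. *Eno2*, *Aldoc* and *Ldhb* thus stood far below the levels given above for *Eno1*, *Aldoa* and *Ldha*. Of the 11 genes tested, *Gapdh* and *Bpgm* included, 4 were higher and 3 lower in CT26 with alum, and 4 were higher and 4 lower with CAT-ABP + alum. *Ldha* and *Ldhb* thus lay on opposite sides. *Eno2* was higher in CT26, as was *Eno1*, whereas *Aldoc* was lower and *Aldoa* was not called.

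**Figure D4:**
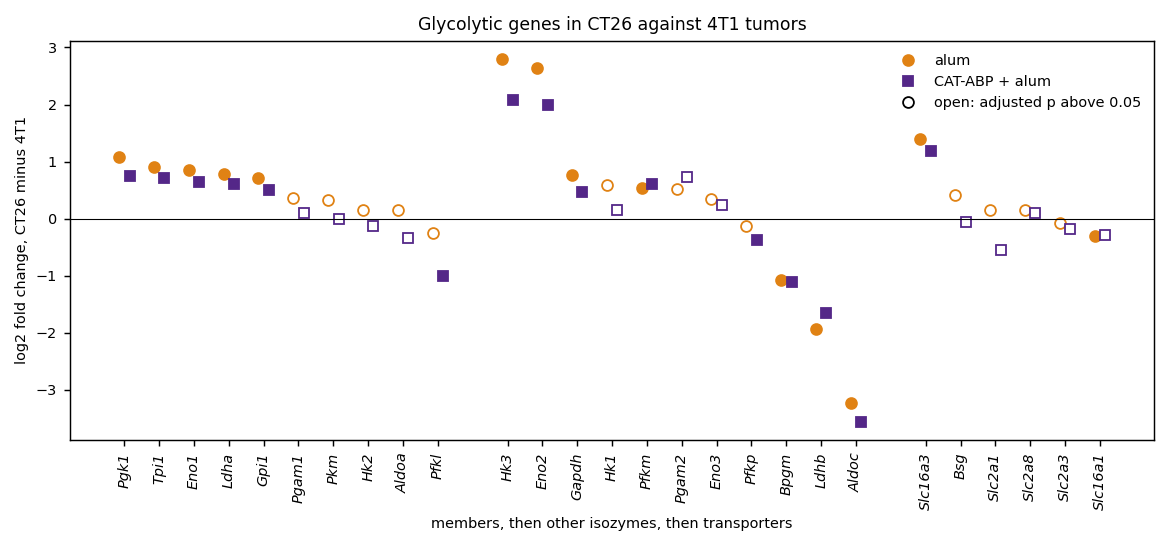
Log2 fold change, CT26 minus 4T1, of the 10 glycolytic genes, their other isozymes with *Gapdh* and *Bpgm*, and the glucose and lactate transporters, with alum (circles) or CAT-ABP + alum (squares), where open symbols have an adjusted p above 0.05. *Hk3* and *Eno2* reach 2.80 and 2.64 at the top, and *Aldoc* lies at -3.24 and -3.56.

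Around the pathway, *Slc16a3*, the lactate exporter MCT4, was higher in CT26 by 1.39 with alum and 1.19 with CAT-ABP + alum, from group means of 2.73 CPM in 4T1 and 7.37 CPM in CT26 with alum, and was the only transporter of 6 and 7 tested that was called higher. *Slc16a1*, the lactate transporter MCT1, was called lower with alum, at -0.31, and was not called with CAT-ABP + alum, at -0.28. *Slc2a1* was not called, at 0.16 with alum and -0.56 with CAT-ABP + alum. Regulators of flux had 4 of 8 genes higher and 0 lower with alum, among them *Pfkfb3*, which makes the activator of phosphofructokinase, at 1.36, *Tigar*, a phosphatase that removes that activator, at 0.95, and *Pdk1*, which inhibits pyruvate dehydrogenase, at 0.93. With CAT-ABP + alum 3 of 8 were higher, *Tigar* at 1.03, *Pdk1* at 0.65 and *Pdp1*, a phosphatase of pyruvate dehydrogenase, at 0.50. *Pdp1* was also among those higher with alum, at 0.86. No pyruvate dehydrogenase subunit was called of 5 under either treatment, with 0 at an unadjusted p under 0.05. In the pentose phosphate pathway, *Tkt*, the transketolase, was lower in CT26 (-0.85 and -0.75), and *Rpia* was called lower with CAT-ABP + alum (-0.54). With alum 1 of 7 genes was higher, *G6pdx* at 0.45. With CAT-ABP + alum 2 of 7 were higher, *Taldo1* at 0.67 and *Pgd* at 0.44. *Pck2*, the mitochondrial phosphoenolpyruvate carboxykinase, was higher (0.96 and 1.02).

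HIF targets outside glycolysis were not moved in 1 direction. With alum, 8 of 14 were called higher in CT26 and 3 lower, and with CAT-ABP + alum 4 were called higher and 3 lower. Over all genes, 21.3% were called higher and 21.1% lower with alum. With CAT-ABP + alum these shares were 21.8% and 23.7%. The counts of the other glycolytic genes and of the other lists above stand beside the same shares. *Higd1a*, a mitochondrial protein, was at 1.44 and 1.01 and *Angptl4* at 1.43 and 0.99. *Ankrd37* was at 1.06 and 0.70. *Ero1a* was at 1.17 with alum and 0.45, not called, with CAT-ABP + alum. *Egln3*, a HIF prolyl hydroxylase, was at -4.24 and -3.85, *Adm*, which encodes adrenomedullin, at -2.03 and -1.08, and *Car9* at -1.41 and -2.11. *Myc* was lower in CT26 (-0.77 and -0.70), and *Hif1a* was not called (0.26 and -0.20). *Egln2* was higher (0.68 and 0.74), and *Egln1* was called higher with alum (0.43) and not with CAT-ABP + alum (0.11). All values in these lists are log2 differences from edgeR's quasi-likelihood test, and several of the smaller calls were lost within shared tags, among them those of *Slc16a3*, *Pfkfb3* and *Gapdh* with alum.

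Within groups, 6 of the transcripts varied from tumor to tumor in 2 sets of 3. After the group mean was taken from each value, *Pgk1* and *Pgam1* had a Pearson r of 0.92 over the 38 tumors, *Pgam1* and *Pkm* of 0.82 and *Pgk1* and *Pkm* of 0.76. *Eno1* and *Ldha* had an r of 0.88, *Tpi1* and *Ldha* of 0.87 and *Tpi1* and *Eno1* of 0.73. Across the sets, r ran from -0.59 for *Eno1* and *Pkm* to 0.45 for *Tpi1* and *Pgk1*. *Hk2* went with the set of *Pgk1* (0.69), *Pgam1* (0.67) and *Pkm* (0.62). It did not go with *Tpi1* (0.17), *Eno1* (-0.36) or *Ldha* (-0.13). *Gpi1* went with *Pgk1* (0.76) and *Tpi1* (0.60), as did *Aldoa* (0.69 and 0.57). Both were less like *Eno1* (0.06 for *Gpi1* and 0.17 for *Aldoa*) and *Ldha* (0.28 and 0.38). Over all 45 pairs the median was 0.41, and 19 pairs were above 0.5. The tumors share libraries, depth and scaling between genes, so these values describe the data and carry no test.

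Part of the likeness could be carried by a shared library, so each gene in technical library 1 was also set against the other in technical library 2. The *Pgk1* and *Pgam1* correlation was then 0.59, that of *Eno1* and *Ldha* 0.62, that of *Tpi1* and *Ldha* 0.57, and that of *Eno1* and *Pkm* -0.41. Single genes set against themselves across libraries gave from 0.20 for *Pfkl* to 0.76 for *Pkm*. The pairs of different genes thus came close to what the same gene gave across libraries, 0.68 for *Pgk1*, 0.57 for *Pgam1*, 0.66 for *Eno1* and 0.72 for *Ldha*. In the 32 tumors with both libraries deep, the r of *Pgk1* and *Pgam1* on summed counts was 0.88 and that of *Eno1* and *Ldha* 0.91.

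**Figure D5:**
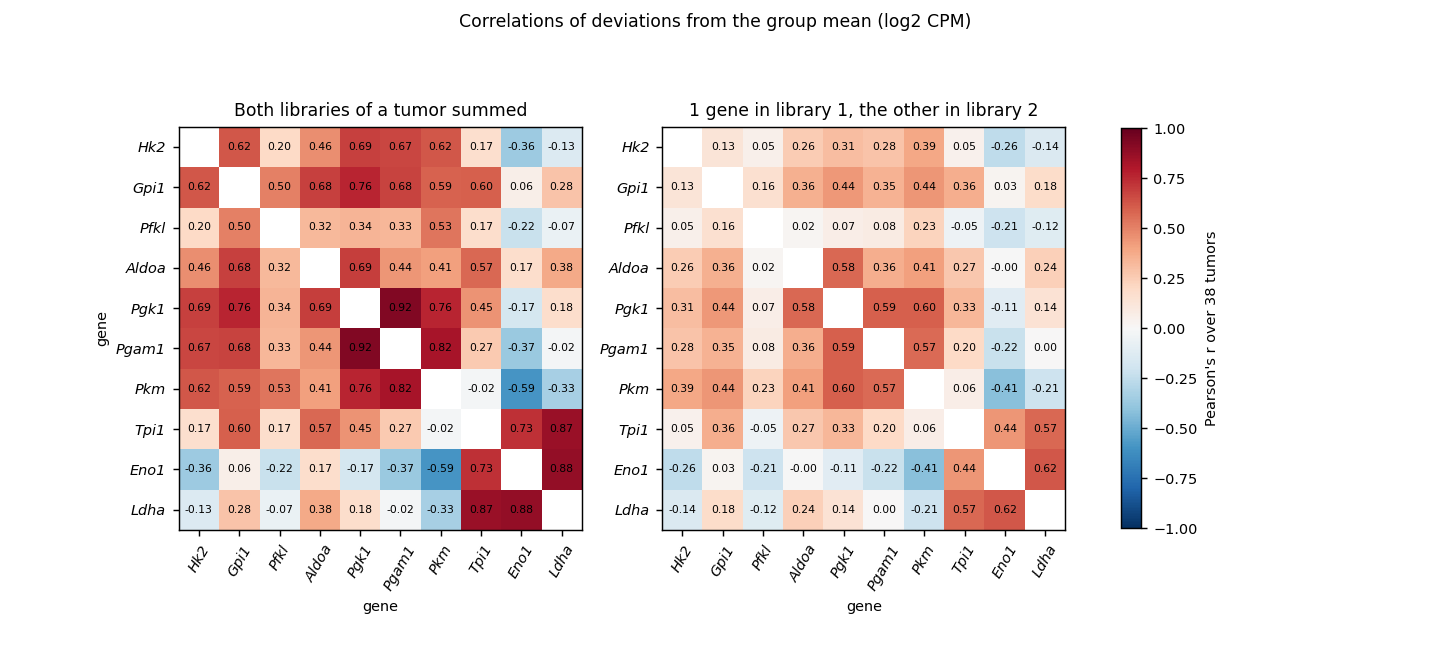
Pearson's r between each pair of glycolytic genes over 38 tumors after subtraction of group means (log2 CPM), for summed libraries on the left and for 1 gene in library 1 against the other in library 2 on the right. *Pgk1*, *Pgam1* and *Pkm* form 1 red block and *Tpi1*, *Eno1* and *Ldha* another, with *Eno1* and *Pkm* at -0.59 on the left and -0.41 on the right.

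The balance of the sets was summarized, after the correlations were seen, as the mean of *Tpi1*, *Eno1* and *Ldha* minus the mean of *Pgk1*, *Pgam1* and *Pkm*. It was highest on average in CT26 with CAT-ABP + alum (1.04 ± 0.31) and lowest in 4T1-CAT with CAT-ABP + alum (0.54 ± 0.25), and single tumors of every group spread widely around these means. Within groups it agreed between technical libraries with an r of 0.70, and its r was -0.23 with the log2 total, -0.61 with fibroblast markers, -0.57 with endothelial markers and 0.47 with erythroid markers. Many genes followed it: of 14625 others, 2388 had an r above 0.5 and 2647 below -0.5. The genes above 0.5 had a median longest transcript of 1994 bases and those below -0.5 of 3816 bases, against 3122 bases for all. The members themselves overlapped in length, with 1607 bases for *Tpi1*, 2027 for *Eno1* and 1815 for *Ldha*. *Pgk1* had 1825 bases, *Pgam1* 1775 and *Pkm* 2432. The part of transcript length or of stromal cells in the 2 sets was not tested. Over the 14625 other genes Spearman's rho between their r with the balance and transcript length was -0.34.

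Outside the 10 genes, those most like their mean within groups were *Eif4a2*, a translation initiation factor, at an r of 0.73, the unnamed *Gm45507* at 0.73, *Sqstm1*, an autophagy receptor, at 0.73, *Vamp4*, a vesicle fusion protein, at 0.73, and *Slc7a11*, the cystine importer, at 0.73. Of 14636 genes, 1078 were above 0.5, and the median was 0.11. Against the mean of the other 9, *Gpi1* (0.88) and *Pgk1* (0.85) followed the group best, and *Eno1* (-0.11) did not follow it. The mean of the 10 had an r of 0.41 with the log2 total count and -0.39 with erythroid markers.

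*Eno1* has a near-identical expressed copy, *Eno1b*, which took between 22.5% and 32.6% of the counts of the pair in each tumor, so the division of reads between them is uncertain. With the counts of both added, the *Eno1* difference between CT26 and 4T1 was 0.88 with alum (edgeR's quasi-likelihood test, adjusted p = 0.00671) and 0.63 with CAT-ABP + alum (adjusted p = 0.00335). *Eno1* was also lower in technical library 2 than in library 1 in 31 of 38 tumors, with a median difference of -0.31. Pseudogenes of the other members held few reads, at most 90.5 counts over all tumors, for *Aldoa-ps4*.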

How the data were processed

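The 10 genes and the gene lists were chosen with earlier results of these data known. The authors prepared 3′ libraries of whole tumors in 2 technical replicates, sequenced them on a NextSeq, and ran the Smart-seq2 pipeline on Terra against GRCm38 with GENCODE M21. The deposited table holds their estimated counts per gene and library (39.7% of those above 0 carried a fraction). The authors left some technical replicates out of their own tests; all 76 libraries were kept here. Counts were added up per tumor and rounded to whole numbers. Counts of the tumors compared were filtered with filterByExpr, scaled by TMM and tested with edgeR 4.0.16 (quasi-likelihood, Benjamini-Hochberg threshold 0.05, R 4.3.3), and differences between effects as interactions. CPM used TMM factors over all 38 tumors, and log2 CPM a prior count of 2. The code was tested on simulated data. Totals of 493044 to 9077549 counts per tumor limit the precision of low genes, *Pfkl* above all. Alternatives were DESeq2 1.42.0, other scalings and filters, 1 model over 7 groups, replicate and index-tag blocks, single technical libraries and each tumor left out. All 10 members are named, as are the 5 outside genes most like the member mean. From each other list, cell type markers aside, up to 3 genes per direction are named by largest fold change among those called. *Car9*, *Slc2a1*, *Hif1a*, *Myc*, *Gapdh* and *Cat* could be named whether called or not. *Angptl4* in the catalase comparisons and *Slc2a3* were named after their values were seen. The *Eno1b* sum, the fits within shared index tags and the correlations across libraries were added after seeing the data.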

Additional observations from a re-analysis of the deposited data

Results flagged for a closer look

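Each gene was checked within each group for 1 tumor that lay far from the rest (Dixon's test, which chance passes in about 1 group in 20), and 4 of 70 sets of values held one, all at the low end. *Hk2* in 4T1-control replicate 2 stood at 19.7 CPM, from 9 counts, and the next tumor at 45.3 CPM. *Pgam1* in the same tumor stood at 162 CPM, from 74 counts, and the next at 279 CPM. That tumor had the lowest total, 493044 counts. *Pfkl* in 4T1 with CAT-ABP + alum replicate 4 stood at 4.80 CPM, from 4 counts, and the next at 13.2 CPM. *Eno1* in 4T1 with CAT-ABP + alum replicate 6 stood at 661 CPM, from 3454 counts, and the next at 934 CPM.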

How the results depend on the processing

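The number of glycolytic genes called kept its side under all 118 fits with another setting and all 130 fits without 1 tumor: it was 5 to 6 for CT26 against 4T1 with alum, 6 to 7 with CAT-ABP + alum, and 0 elsewhere. *Eno1* in CT26, CAT-ABP + alum against alum, ranged from -0.20 to 0.056 when 1 tumor was left out and was above 0 without alum replicate 4 or 5. At most 2 same-numbered pairs of 5 or 6 deviated together with r over 0.1 in any comparison, with the highest r at 0.33. So few pairs cannot exclude that replicate numbers pair the tumors. With the replicate number as a block, 0 genes were called in the catalase comparisons, 5 for CT26 against 4T1 with alum and 7 with CAT-ABP + alum, where *Aldoa* was added. Calls over all genes moved by over 1.5 times in 26 of 118 fits with another setting and in 18 of 130 without 1 tumor, up to 575 genes for 4T1-CAT with CAT-ABP + alum against 4T1-control: DESeq2 called 266 genes for 4T1-CAT, CAT-ABP + alum against alum, and 510 against 4T1-control, where edgeR called 0 and 3, and technical replicate 2 alone called 2849 and 3559 genes between CT26 and 4T1. Without a filter on low counts, 532 genes were called for 4T1-CAT with CAT-ABP + alum against 4T1-control, and 131 for 4T1-CAT against 4T1-control. The cause was not tested. Library totals alone moved the median of all genes by over 0.1 also for 4T1-CAT with CAT-ABP + alum against alum (0.16) and against 4T1-control (0.19), where the medians of the 10 genes became 0.25 and 0.24.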
